A study of Mus musculus with 219 samples.

Results

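Of all single blastomeres of 2-cell mouse embryos in the count matrix (48 after ipsilateral, 46 after contralateral and 31 after equatorial sperm injection), 7 held counts for fewer than 9500 genes, and each of them had a sister from the same embryo in which 9500 or more genes were counted. These 7 transcript-poor blastomeres were compared with their own sisters, so that the oocyte, the sperm, the injection and the day of cleavage were the same within a pair. They came from 7 of the 62 embryos with both blastomeres in the count matrix, which is 11.3% of these embryos (exact binomial 95% confidence interval 4.66% to 21.9%). Some blastomeres named in the series had no column in the matrix, most of them after equatorial injection, and do not enter this share. The other 55 pairs (110 blastomeres), called ordinary here, had 9500 or more genes in both blastomeres, and 1 further blastomere had no sister in the matrix.

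All embryos were B6C3F1xCD1 hybrids. Oocytes arrested in the second meiotic metaphase (MII) were taken from superovulated young adult B6C3F1 females, and a CD1 sperm head was delivered by intracytoplasmic sperm injection (ICSI) at 1 of 3 places in the ooplasm. In ipsilateral ICSI (Is in the labels) the sperm head lay beside the MII spindle, in contralateral ICSI (Co) at the opposite pole and in equatorial ICSI (Eq) between the poles. No embryo was left uninjected or naturally fertilised among these blastomeres, so that every blastomere, poor or ordinary, carried the same manipulations: injection, culture in KSOM and mechanical separation from its sister shortly after the first cleavage. The transcript-poor blastomeres were 26a, 27a and 58b (ipsilateral), 46a and 51b (contralateral) and 35a and 74a (equatorial), where the number is that of the embryo and the letter that of the blastomere in the labels. The letters only name the blastomeres.

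A blastomere of the early 2-cell embryo lives largely on RNA and protein that the oocyte stored. Much of this maternal RNA is held in a dormant state and is deadenylated and degraded as the embryo starts its own transcription, first weakly in the zygote and then in a major wave during the 2-cell stage. Mitochondria are inherited from the oocyte and do not replicate their DNA at this time, and their 13 messenger RNAs encode subunits of the respiratory chain. A leaking or dying cell can lose cytoplasmic RNA while its organelles stay, and a high mitochondrial share is commonly used as a mark of such cells, whereas a poorly captured cell gives fewer molecules to the cDNA reaction. Both leave few genes counted, and in single libraries less RNA in the cell and a smaller captured part of it cannot be told apart.

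The values that chose the blastomeres are given first, as a description. In the order of embryos 26, 27, 35, 46, 51, 58 and 74, which is kept for every list of values that follows, the transcript-poor blastomeres had counts for 3020, 8877, 7994, 7883, 9279, 8886 and 8040 genes. Their sisters had counts for 12757, 11503, 11924, 11909, 10501, 12130 and 11082 genes. The 110 ordinary blastomeres had 9973 to 13228 genes, with a median of 11999. The blastomere just inside the limit was 51b with 9279 genes and the one just outside it was the equatorial blastomere 36b with 9973 genes.

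The transcript-poor libraries were also shallower. Their total counts were 199797, 546842, 352397, 292890, 978581, 632507 and 440134, against 1464800, 1376410, 1454584, 1229954, 1409382, 1842846 and 1099122 in their sisters. Ordinary libraries held 360474 to 2100561 counts (median 1340425), so that 4 of the 7 transcript-poor totals lay within the range of the ordinary ones. The gene number therefore had to be compared at equal depth, and each library was rarefied to 199797 counts, the lowest total of any blastomere.

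At this common depth the transcript-poor blastomeres had 3020, 7791, 7470, 7468, 8106, 7805 and 7298 genes. The sisters had 10828, 9825, 10248, 10243, 9197, 10387 and 9466 genes. The means were 6994 ± 1773 (SD, n = 7) and 10028 ± 564 (SD, n = 7), and every transcript-poor value lay below the lowest of the 110 ordinary blastomeres, which ran from 8591 to 11191 with a median of 10333. The shortfall in genes was thus still there once depth was made equal, with 27a at 7791 genes where its sister had 9825. When each sister was instead thinned to the total of its own partner, the partner had 8877 genes against 10824 in embryo 27, 9279 against 10298 in embryo 51 and 8040 against 10283 in embryo 74.

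**Figure D1:**
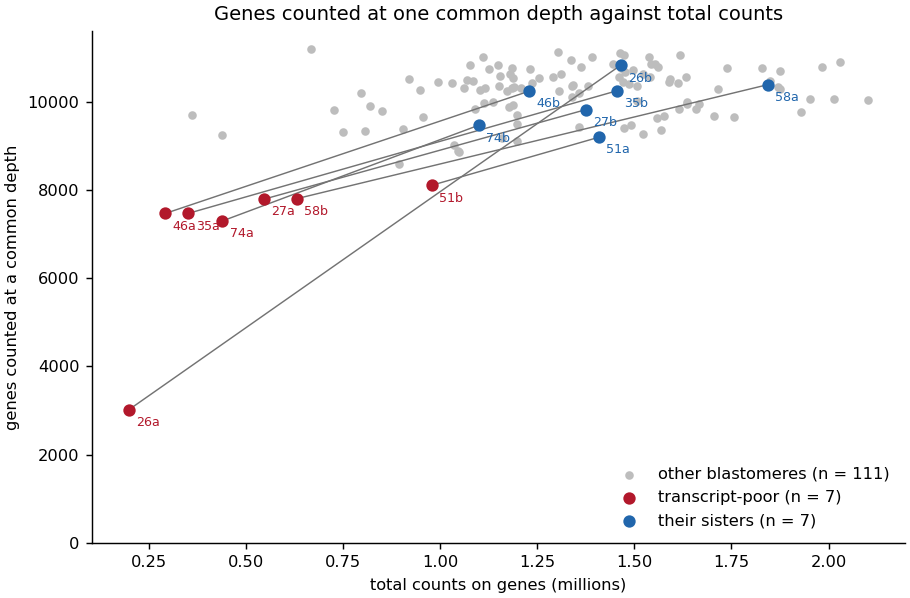
Genes with a count in each blastomere after rarefaction of every library to 199797 counts (vertical axis) against the total count of the library (horizontal axis), with transcript-poor blastomeres in red joined by lines to their sisters in blue, and the ordinary blastomeres and the 1 without a sister in grey. All 7 transcript-poor blastomeres lie below the ordinary range, and 26a, at 3020 genes, lies far below the other 6.

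Blastomere 26a stood apart from the other 6. It had a count in 46.3% of the 4630 genes that average 50 CPM or more in ordinary blastomeres, called abundant here (CPM are counts scaled to the same total in every library), whereas the other 6 had counts in 88.9% to 97.5% of them. Its 100 highest genes took 22.2% of its counts, against 13.2% to 15.9% in the other 6. Its Spearman correlation with the mean of the ordinary blastomeres, across genes of 1 library, was 0.483, against 0.617 to 0.782 for the other 6, 0.771 to 0.902 for sisters and 0.768 to 0.920 for ordinary blastomeres. Main values are given with and without pair 26.

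The libraries were checked against 8 oocyte and 2-cell markers. All 8 were counted in every transcript-poor blastomere and sister with the exception of 26a, which had no count of Zp3, a zona pellucida glycoprotein of the oocyte, and counts of the other 7. By these markers, each transcript-poor library came from a cell of the egg lineage. Markers of cells that could cling to an embryo were low. The summed level of 27 cumulus and granulosa cell markers was 30.03 to 250 CPM in transcript-poor blastomeres, 131.1 to 315 CPM in sisters and 58.1 to 413 CPM in ordinary blastomeres, with 9 of the 27 at 0 in all 14 libraries of the 7 pairs. Cyp19a1, the aromatase of granulosa cells, was at 0 in all 7 transcript-poor blastomeres. The 16 sperm markers summed to 215 to 777 CPM in transcript-poor blastomeres, 297 to 427 CPM in sisters and 132 to 524 CPM in ordinary blastomeres. In 27a (558 CPM) and 74a (777 CPM) the sum was above all 110 ordinary blastomeres. Nearly all of it came from Odf2, which also has a role at centrosomes outside the sperm, and 7 of the 16 were at 0 in all 14 libraries. The 15 fibroblast and blood markers summed to 0 to 56.8 CPM against 2.44 to 91.5 CPM.

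Loss followed abundance. The genes counted in transcript-poor blastomeres and in sisters thinned to the same total were compared in 6 classes of mean level in ordinary blastomeres. Of the 2930 genes at 1 to 3 CPM, a median of 9.42% was counted in the poor blastomere and 18.7% in the thinned sister. At 10 to 30 CPM the medians were 48.5% and 78.6%, at 30 to 100 CPM 79.9% and 97.9%, and at 100 to 300 CPM 97.02% and 99.9%. At 300 CPM or more both medians were 100% (696 genes). Without pair 26 the medians at 10 to 30 CPM were 51.2% and 75.6% and at 30 to 100 CPM 80.02% and 96.6%. In 26a the share was the lowest in every class, from 2.29% at 1 to 3 CPM to 50.2% at 100 to 300 CPM and 86.4% at 300 CPM or more.

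**Figure D2:**
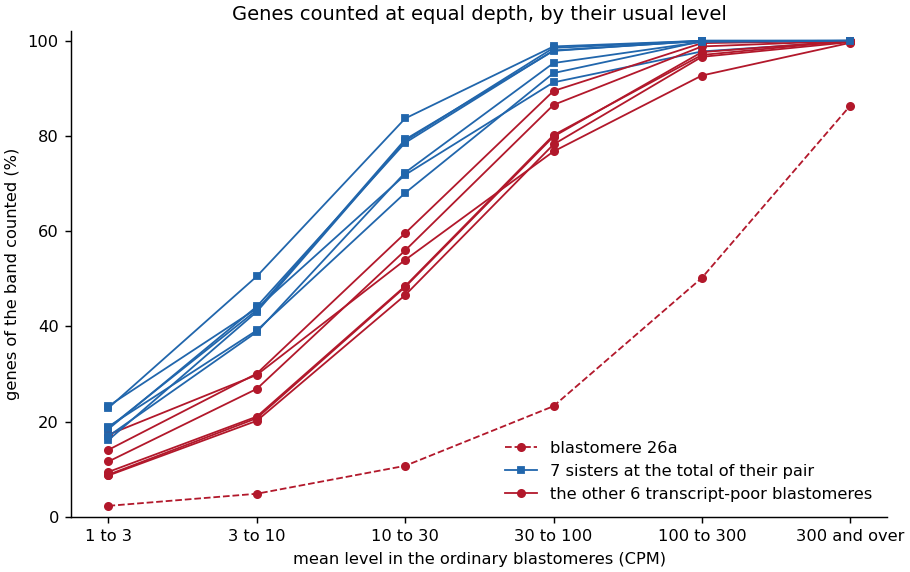
Percent of genes with at least 1 count (vertical axis), by class of mean CPM in ordinary blastomeres (horizontal axis), in transcript-poor blastomeres (red, 26a dashed) and in sisters thinned to the same total (blue), 1 line per blastomere. Medians were 48.5% and 78.6% at 10 to 30 CPM, and at 300 CPM or more all except 26a had counts for at least 99.6% of the genes.

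A gene was called lost in a pair when the thinned sister had a count and the transcript-poor blastomere had none. Of 9244 genes averaging 10 CPM or more in ordinary blastomeres, 5825, 1769, 1879, 2054, 1098, 1576 and 1701 were lost, and 61, 622, 246, 259, 693, 258 and 372 were counted in the poor blastomere alone. In 55 ordinary pairs, with the blastomere of fewer genes taken as the poorer, the median number lost was 459 (207 to 1067), and with blastomere a taken as the poorer it was 366 (110 to 848). The 7 pairs all lay above both ranges, with embryo 51 (1098) close to the highest ordinary value of 1067 in 36b, the blastomere just outside the limit. Of the 4630 abundant genes 53.6%, 10.02%, 6.85%, 7.82%, 2.29%, 3.80% and 6.76% were lost, against 0% to 2.35% (median 0.216%) in the poorer blastomere of ordinary pairs. The share of embryo 51, the lowest of the 7, was thus below that of 36b (2.35%), and the other 6 were above all ordinary pairs.

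The lost genes were only partly shared among blastomeres. Of the 4630 abundant genes, 1910 (41.3%) were counted in all 7 transcript-poor blastomeres, 1747 (37.7%) were missing in 1 of them, 590 in 2, 215 in 3, 2.35% in 4, 44 genes in 5 and 14 in 6, and 1 gene was missing in all 7. Without 26a, 3494 of the abundant genes (75.5%) were counted in all 6 and 710 were missing in 1. In the thinned sisters 4372 (94.4%) were counted in all 7 and 230 were missing in 1. Most abundant genes with a gap in the transcript-poor group were thus missing from 1 blastomere only.

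Some abundant transcripts were absent from several transcript-poor blastomeres while every thinned sister had a count of them. There were 1028 genes with no count in 3 or more transcript-poor blastomeres and a count in every thinned sister, and 306 of them were abundant. The gene highest in ordinary blastomeres among these was Mrps14, a protein of the small mitochondrial ribosome subunit. It stood at 0, 0, 99.3, 0, 288, 126.5 and 88.6 CPM in transcript-poor blastomeres and at 285, 198, 219, 193, 377, 275 and 166 CPM in sisters. It was within the range of the sisters in 51b, below that range in 35a, 58b and 74a, and not counted in 26a, 27a and 46a.

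Timm17a, part of the translocase that brings proteins across the inner mitochondrial membrane, was at 0, 0, 0, 64.9, 14.3, 101.2 and 4.54 CPM against 224, 82.1, 144, 137, 103.6, 128.6 and 101.9 CPM. Gnpda2, a glucosamine-6-phosphate deaminase, was at 0, 0, 17.03, 3.41, 252, 133 and 0 CPM against 184, 299, 126.5, 145, 262, 245 and 80.97 CPM. Both genes were missing in 26a and 27a and kept in 58b, whereas 51b kept Gnpda2 near the level of its sister and Timm17a at a low level. Med31, a Mediator subunit, was at 831, 0, 2.84, 0, 31.7, 1.58 and 0 CPM against 165, 37.1, 101.8, 157, 149, 130.2 and 33.7 CPM. It was thus the highest of all 14 libraries in 26a, where most genes were missing, and lower than the sister in the other 6. The other genes named by the same criterion were Polr3k, Vta1, Gnrh1, Ubxn1, Zfp809 and Apip.

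Transcript length went along with loss. Genes at 30 to 100 CPM were split into 3 equal groups by exonic length. A median of 70.8% of the shortest group (303 to 3340 bases) was counted in transcript-poor blastomeres, against 83.2% of the middle group and 85.99% of the longest. The shortest group was lower than the longest in all 7 transcript-poor blastomeres, for example 65.8% against 85.99% in 27a and 86.1% against 92.2% in 51b. In thinned sisters the medians were 97.3%, 97.9% and 97.6%, and the shortest group was also lower than the longest in 6 of 7, by most in 27b (87.9% against 94.7%). In 3 groups by GC content the medians in transcript-poor blastomeres were 75.1%, 79.6% and 83.4% from the lowest to the highest GC. This order was not shared by all 7. In 26a the lowest GC group was counted at 25.3% and the highest at 22.6%. The highest value of any transcript-poor blastomere was 89.97% in the lowest GC group and 89.4% in the highest. Of 3226 protein-coding genes at 30 to 100 CPM a median of 80.7% was counted, and of 158 genes of other types 62.03%, against 97.95% and 96.8% in thinned sisters. In 26a the order was the other way (23.2% against 24.7%). The other types also had a lower median level in ordinary blastomeres (45.4 against 54.3 CPM), which was not accounted for.

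The same direction was seen in the levels of abundant genes. Abundant genes were split into 5 equal groups by exonic length, and the median log2 difference from the sister was larger for the longest group than for the shortest by 0.09 to 0.92 (median 0.52), in 7 of 7 pairs. In 55 ordinary pairs the corresponding value, with the blastomere of fewer genes taken first, ran from -0.59 to 0.64 with a median of -0.0049, so that 27a (0.85) and 46a (0.92) were above all of them and the other 5 were within their range. The mean exonic length weighted by counts was 6566 ± 353 bases (SD, n = 7) in transcript-poor blastomeres and 6278 ± 294 bases in sisters. It was higher in 5 of 7 pairs and did not pass (exact sign-flip permutation test, two-sided, p = 0.0625, Benjamini-Hochberg adjusted over 3 measures p = 0.0625). The mean GC content weighted by counts was 47.9% ± 0.161 against 47.4% ± 0.266 (SD, n = 7). This rise of 0.486 percentage points was found in 7 of 7 pairs (exact sign-flip permutation test, two-sided, p = 0.0156, adjusted p = 0.0469). The p-value is the smallest that 7 pairs can give, and the adjusted value was 0.0938 without pair 26, 27, 35, 46, 51 or 58 and 0.0469 without pair 74. In the 55 ordinary pairs the absolute difference in mean GC content was 0.0039 to 0.902 points (median 0.181). The 7 values, at 0.205 to 0.836 points, lay within that range. Between the highest and the lowest of 5 GC groups of abundant genes, the median log2 difference changed by -0.15 to 0.70, below 0 in 1 pair. In ordinary pairs, with blastomere a taken first, this change was -0.36 to 0.81. The part of length and base composition in the loss of single genes was not tested.

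**Figure D3:**
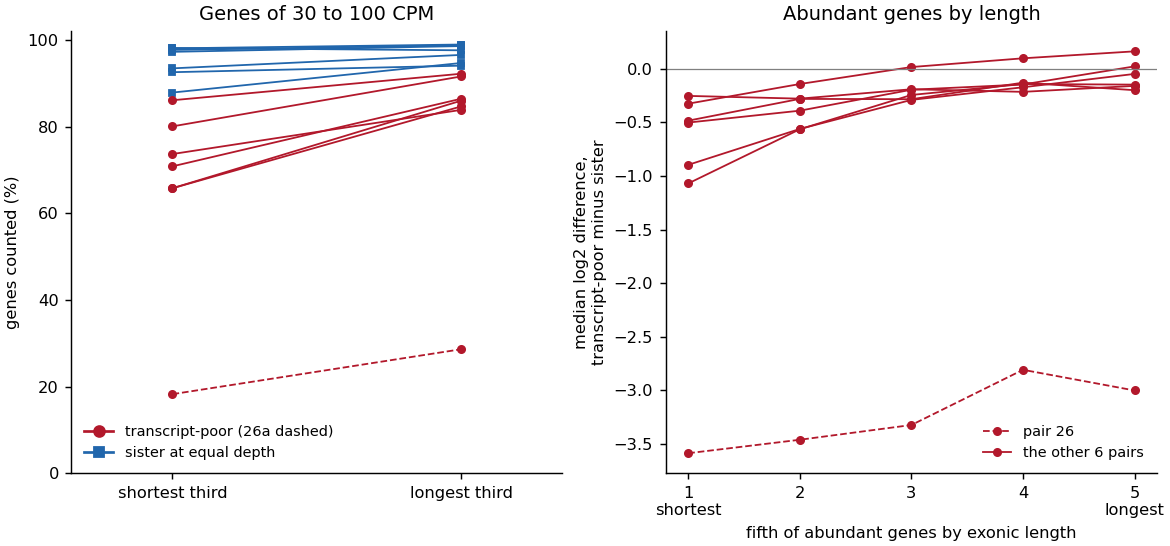
Percent of genes at 30 to 100 CPM with a count in the shortest and the longest of 3 length groups (left, transcript-poor in red, thinned sisters in blue), and the median log2 difference from the sister in 5 length groups of abundant genes (right), 1 line per pair with pair 26 dashed. The longest group lay above the shortest in all 7 pairs, by 0.09 to 0.92 on the log2 scale.

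The mitochondrial share of counts was not higher in transcript-poor blastomeres. It was 0.285%, 1.26%, 1.08%, 1.25%, 1.28%, 0.954% and 0.871%, against 1.37%, 2.20%, 1.39%, 1.31%, 2.04%, 1.29% and 0.783% in sisters. The share was lower than the sister's in 6 of 7 pairs, and embryo 74 was the exception. The means were 0.998% ± 0.353 and 1.48% ± 0.483 (SD, n = 7), a difference of -0.486 ± 0.446 percentage points (SD over pairs). The exact sign-flip permutation test gave p = 0.0469 (two-sided), which did not pass after adjustment over 3 measures (p = 0.0625). Without pair 26 the difference was -0.387 points (exact p = 0.0938), and within plate 1, where 4 pairs cannot go below p = 0.125, it was -0.599 points (exact p = 0.125). All 7 shares except that of 26a lay within the ordinary range of 0.756% to 4.00% (median 1.45%).

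The 13 mitochondrial messenger RNAs did not move as 1 block. Those of mt-Nd2, mt-Nd4, mt-Nd4l and mt-Atp8 were lower in the transcript-poor blastomere of all 7 pairs, mt-Cytb, mt-Atp6 and mt-Nd5 in 6, mt-Nd1, mt-Nd6 and mt-Co3 in 5 and mt-Co1 in 4. In contrast, mt-Nd3 was higher in 5 of 7 pairs and mt-Co2 in 6 of 7.

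The transcript of mt-Nd2, a subunit of respiratory complex I (chrM:3914-4951, GRCm38), stood at 400, 569, 542, 324, 631, 394 and 309 CPM in transcript-poor blastomeres. Sisters had 1064, 1683, 1014, 931, 1768, 936 and 467 CPM. The levels overlapped only through 74b, the lowest sister, and in the other 6 pairs the poor blastomere was below every sister of those pairs. The log2 difference was -1.23 ± 0.22 (SE, 7 pairs, adjusted p = 1.1e-05, edgeR), and it stayed past the threshold when any 1 pair was left out. The transcript of mt-Nd4 fell by 0.75 on the log2 scale (SE 0.20, adjusted p = 0.037, edgeR), with 215 CPM in 26a against 1411 CPM in 26b, and without pair 26 the difference was -0.44 with an adjusted p of 0.0762 (0.00156 to 0.71 over all alternatives).

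The short transcript of mt-Atp8, a subunit of ATP synthase, was at 10.01, 53.03, 36.9, 51.2, 88.9, 45.8 and 36.4 CPM against 246, 320, 151, 159, 401, 229 and 59.1 CPM. Every transcript-poor value except that of 51b lay below the lowest sister. It did not pass the test across genes (log2 difference -2.12 ± 0.85, adjusted p = 0.164, edgeR). Cytochrome b (mt-Cytb) was at 581, 1117, 749, 1461, 1443, 1160 and 1245 CPM against 2202, 3259, 1898, 1685, 3392, 2261 and 824 CPM, and the cytochrome oxidase subunit mt-Co2 at 440, 1472, 1098, 1086, 1203, 1107 and 804 CPM against 796, 1345, 1056, 944, 1107, 803 and 742 CPM. Neither passed, with log2 differences of -0.97 ± 0.38 (adjusted p = 0.278, edgeR) and 0.04 ± 0.18 (adjusted p = 0.924, edgeR). Blastomere 26a had no count of mt-Nd3, mt-Nd4l and mt-Nd6, which were counted in all 13 other libraries of the 7 pairs.

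**Figure D4:**
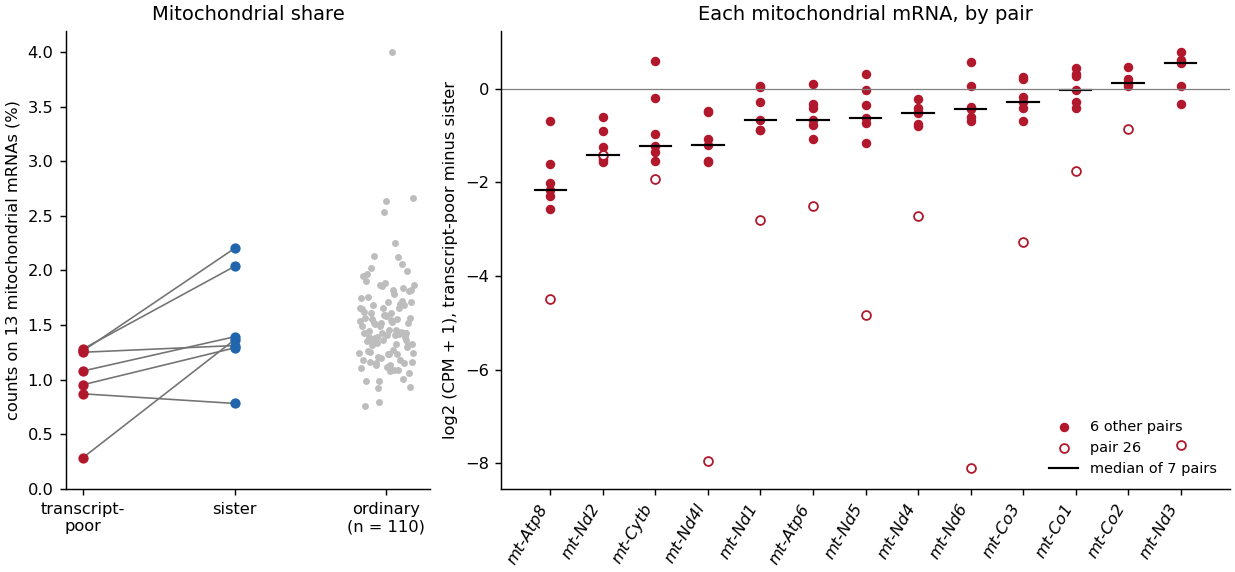
Share of counts on mitochondrial messenger RNAs in percent (left, pairs joined by lines, ordinary blastomeres in grey), and the difference in log2(CPM + 1) of each of the 13 RNAs between the transcript-poor blastomere and its sister (right, 1 point per pair, pair 26 open, bars at the median of 7 pairs). The share was lower in 6 of 7 pairs, and mt-Nd2, mt-Nd4, mt-Nd4l and mt-Atp8 were lower in all 7 while mt-Co2 was higher in 6.

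Levels were compared within pairs by edgeR on the sister thinned to the total of its partner, with the embryo as a term. Of 4630 abundant genes, 2.29% passed an adjusted p of 0.05, with 52 higher (1.12%) and 54 lower (1.17%) in transcript-poor blastomeres. Without pair 26, 256 genes passed (5.53%), of which 154 were higher (3.33%) and the others lower (2.20%), and all 52 higher and 45 of the 54 lower genes were among them. Without pair 27, 35, 46, 51 or 58 the numbers were 54, 38, 29, 63 and 27. Over all 9244 genes tested 138 passed (1.49%), with 52 higher and 86 lower, and with another scaling (relative log expression, RLE) the split was 43 and 130, of which 43 and 80 were abundant genes. Of the 54 lower genes, 45 had no count in at least 1 transcript-poor blastomere and so took part in the gene number that chose the blastomeres, and nothing is read from their number. All 52 higher genes had a count in each of the 14 libraries. CPM are shares of a library, so that a share can rise because other genes fell, and the median log2 difference was -0.58 over all abundant genes and -0.04 over the 1887 that were counted in all 14 libraries. The higher genes had a median exonic length of 4868 bases and all abundant genes of 4814 bases. All 52 were counted in all 14 libraries, and the 1887 genes counted there had a median of 5559 bases. Against this matching set the higher genes thus had the shorter median. They also had a higher median level in ordinary blastomeres than all abundant genes, and lengths at equal level were not tested. The median of the 54 lower genes was 2467 bases, from which nothing is read because of their gaps. Of these, 9 were counted in all 14 libraries, with a median of 2774 bases, against 5559 bases for all 1887 genes counted there.

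Of the genes that rose, 18 passed in every fit that left out 1 pair. They included Khdc1b, Eif5b, Taf3, Ppig, Chd7, Psip1, Wwc2, Mphosph6, Cdv3, Lars2, Ccdc6, Baz2a, Suz12, Rbm25, Hsp90aa1, Zbed3 and Spry4. Among them are chromatin proteins (Chd7, Baz2a, Suz12), RNA-binding and splicing proteins (Rbm25, Ppig), a translation initiation factor (Eif5b) and a member of the subcortical maternal complex of the egg (Zbed3).

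Zbed3 (chr13:95323612-95337841, GRCm38) stood at 8969, 4493, 4078, 4975, 4284, 5001 and 4142 CPM in transcript-poor blastomeres and at 2871, 3550, 2914, 3084, 3119, 2808 and 2943 CPM in sisters. The groups did not overlap, as was the case for 22 of the 4630 abundant genes in this direction (0.475%), and 26a was the highest. The log2 difference was 0.73 ± 0.08 (SE, adjusted p = 1.3e-15, edgeR). Levels in the 110 ordinary blastomeres ran from 2100 to 5060 CPM, so that 6 of the 7 transcript-poor levels were within that range.

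Cdv3 was at 1466, 1880, 1629, 2103, 1046, 1597 and 1722 CPM against 571, 932, 744, 684, 587, 512 and 1216 CPM (log2 difference 1.14 ± 0.16, adjusted p = 1.35e-08, edgeR). Lars2, the leucyl-tRNA synthetase of mitochondria, was at 1602, 1392, 936, 857, 641, 920 and 1222 CPM against 265, 486, 396, 304, 264, 242 and 551 CPM (1.52 ± 0.23, adjusted p = 6.0e-08). For Lars2 the groups did not overlap, and all 7 transcript-poor blastomeres were above the ordinary maximum of 619 CPM. Counts per gene do not show where in Lars2 the reads lay, and the source of this rise was not tested. Chd7, a chromatin remodeller, was at 866, 1123, 1053, 1386, 470, 672 and 591 CPM against 285, 345, 343, 329, 112.8, 291 and 455 CPM (1.50 ± 0.26, adjusted p = 1.1e-05, edgeR).

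Hsp90aa1, the inducible cytosolic chaperone HSP90 alpha, was at 2773, 1244, 1078, 1639, 1321, 1104 and 1422 CPM against 689, 674, 776, 793, 785, 598 and 1021 CPM. The groups did not overlap, and the log2 difference was 0.91 ± 0.17 (adjusted p = 7.8e-05, edgeR). Khdc1b, Wwc2, Ccdc6 and Rbm25 rose by 0.84, 0.84, 0.85 and 1.10 on the log2 scale. For Rbm25, a splicing factor, 26a was near its sister (385 against 373 CPM) while the other 6 had 599 to 1748 CPM against 417 to 554 CPM.

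The largest rise among the named genes was that of Gm42418 (chr17:39846958-39848788, GRCm38), a long non-coding gene model that overlaps a copy of the ribosomal RNA repeat, so that reads of ribosomal RNA can be counted in it and its level is uncertain. It was at 4465, 3434, 2636, 4080, 1227, 2707 and 5553 CPM in transcript-poor blastomeres and at 239, 408, 522, 423, 444, 233 and 1287 CPM in sisters. Each blastomere was above its own sister, 6 of 7 were above all 110 ordinary blastomeres (161 to 1721 CPM), and the groups overlapped through 51b and 74b. The log2 difference was 2.85 ± 0.23 (adjusted p = 1.3e-06, edgeR, 4.4e-96 to 0.0626 over all alternatives, the highest without pair 27). The group means were 3443 ± 1414 and 508 ± 360 CPM (SD, n = 7).

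Of the genes that fell, Ubb, mt-Nd2, Ccnb1 and AA545190 passed in every fit that left out 1 pair, and each was counted in all 14 libraries. Ubb, a polyubiquitin gene (chr11:62551171-62553213, GRCm38), was at 170, 166, 119.2, 75.1, 573, 337 and 139 CPM in transcript-poor blastomeres. Sisters had 1249, 718, 861, 737, 1099, 896 and 481 CPM. Only 51b reached the level of the lowest sister, and 5 of 7 lay below the ordinary minimum of 193 CPM. The log2 difference was -2.13 ± 0.30 (adjusted p = 3.5e-09, edgeR).

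Ccnb1, the cyclin B1 that drives entry into mitosis and whose maternal RNA is under control of its poly(A) tail, was at 440, 141, 349, 242, 857, 392 and 334 CPM against 1088, 387, 770, 963, 1147, 1073 and 611 CPM. Every transcript-poor blastomere was below its sister, and 51b, the one with most genes, was the closest to its own. The log2 difference was -1.28 ± 0.25 (adjusted p = 0.00022, edgeR). Mad2l1, a spindle checkpoint protein, and Eif4e, the cap-binding protein, were the other lower genes of known role with a count in all 14 libraries, together with mt-Nd4, Nlrp9c and Sat1.

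Other lower genes are given by value alone, since gaps in transcript-poor blastomeres were part of how these were chosen. Oas1h, a member of the oligoadenylate synthetase family, was at 0 in 6 transcript-poor blastomeres and at 2.27 CPM in 74a, while sisters had 90.1, 86.5, 31.6, 29.3, 112.1, 86.8 and 37.3 CPM. Apoo, a protein of the mitochondrial inner membrane, was at 0, 1.83, 0, 0, 36.8, 0 and 0 CPM against 68.3, 84.3, 82.5, 88.6, 249, 194 and 12.7 CPM. Anln, the anillin of the contractile ring, was at 0, 1.83, 0, 10.2, 73.6, 50.6 and 2.27 CPM against 162, 138, 120.3, 204, 221, 194 and 136 CPM. Apoo and Anln were highest in 51b among the transcript-poor blastomeres. The remaining named genes, Itgb1bp1, Uchl3, Rbm44 and Trappc1, had means of 100.7, 79.1, 9.88 and 17.03 CPM in transcript-poor blastomeres against 349, 345, 137 and 140 CPM in sisters. Groups did not overlap for 60 abundant genes in this direction (1.3%).

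Gene lists are ordered here from the respiratory chain to maternal, embryonic and stress genes. Their levels are summed CPM, and their calls are of abundant members. Over all abundant genes 2.29% passed with all pairs and 5.53% without pair 26. In lists of this size, nothing is read from no call or a single call. Of 37 abundant nuclear genes for subunits of oxidative phosphorylation (OXPHOS), none passed in the test with all pairs in either direction (Atp5g1 fell without pair 26), against 2.29% of all abundant genes, and 5 (13.5%) were lower in all 7 pairs, against 7.47% of all abundant genes (2.38% were higher in all 7 pairs). Their summed level was 2199 to 5282 CPM (median 3700) in transcript-poor blastomeres and 4406 to 6543 CPM (median 5460) in sisters, lower in 7 of 7 pairs by a median of 0.58 on the log2 scale. A median of 64.6% of the 65 members at 10 CPM or more was counted, against 89.2% in thinned sisters and 74.5% against 91.9% over all genes.

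Of 79 cytosolic ribosomal protein genes, a median of 97.5% was counted, against 100% in thinned sisters, and in 26a 22.8% were counted. Their median level in ordinary blastomeres was 115.9 CPM, that of the nuclear OXPHOS genes was 62.8 CPM, and all genes at 100 to 300 CPM were counted at a median of 97.02%. None of 71 abundant members passed (Rplp1 and Rplp2 rose without pair 26). Their summed level was 3544 CPM in 26a against 10176 CPM in 26b, and in the other 6 pairs the log2 difference ran from -0.13 to 0.39.

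Among oocyte and maternal-effect transcripts, which build the egg and its first cleavages, 1 of 32 abundant members rose (Zbed3) and none fell (without pair 26 Gdf9 also rose and H1foo fell). Their summed level was higher in 6 of 7 pairs by a median of 0.12 on the log2 scale, with 44961 CPM in 26a against 20550 CPM in 26b. Bmp15, an oocyte growth factor, was at 3459 CPM in 26a against 910 CPM in 26b and within 986 to 1407 CPM in the other 6. Dppa3, which protects maternal methylation, was at 889 to 3038 CPM against 1135 to 1836 CPM. Factors that store, polyadenylate or degrade maternal RNA summed to 8308 to 11957 CPM against 7050 to 8561 CPM, higher in 7 of 7 pairs by a median of 0.19. Of their 24 abundant members 1 rose (Eif4e1b, the oocyte form of the cap-binding protein), and without pair 26 Cnot7 also fell.

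Genes listed as activated at the 2-cell stage were lower in sum in 7 of 7 pairs. They summed to 1536 to 6382 CPM (median 4237) against 2608 to 7745 CPM (median 5618), with a median log2 difference of -0.36. Of 25 abundant members Usp17lb alone passed with all pairs, lower, and without pair 26 Obox1 and Obox3 passed too, both lower. Usp17lb had gaps in transcript-poor blastomeres, which took part in the gene number that chose them, so nothing is read from its call. A median of 71.8% of 39 members was counted against 94.9% in thinned sisters, where all genes had 74.5% against 91.9%. The median level of these members in ordinary blastomeres was 93.1 CPM, against 50.1 CPM for all genes. All genes at 30 to 100 CPM were counted at 79.9% against 97.9%. How much of the RNA of these genes was stored by the oocyte was not tested. Obox1, a homeobox gene of this list, has near-identical copies, so that its level is uncertain. It was at 946, 18.3, 19.9, 92.2, 401, 240 and 148 CPM against 444, 278, 310, 344, 619, 507 and 179 CPM. It was lower in all pairs except that of 26a. The early transcription and translation genes of activation differed the other way, with a sum higher in 6 of 7 pairs (median 0.13) and a rise of Npm1, a nucleolar chaperone, by 0.83 ± 0.20 on the log2 scale (adjusted p = 0.0087, edgeR). Without pair 26 Ncl, which encodes nucleolin, also rose.

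**Figure D5:**
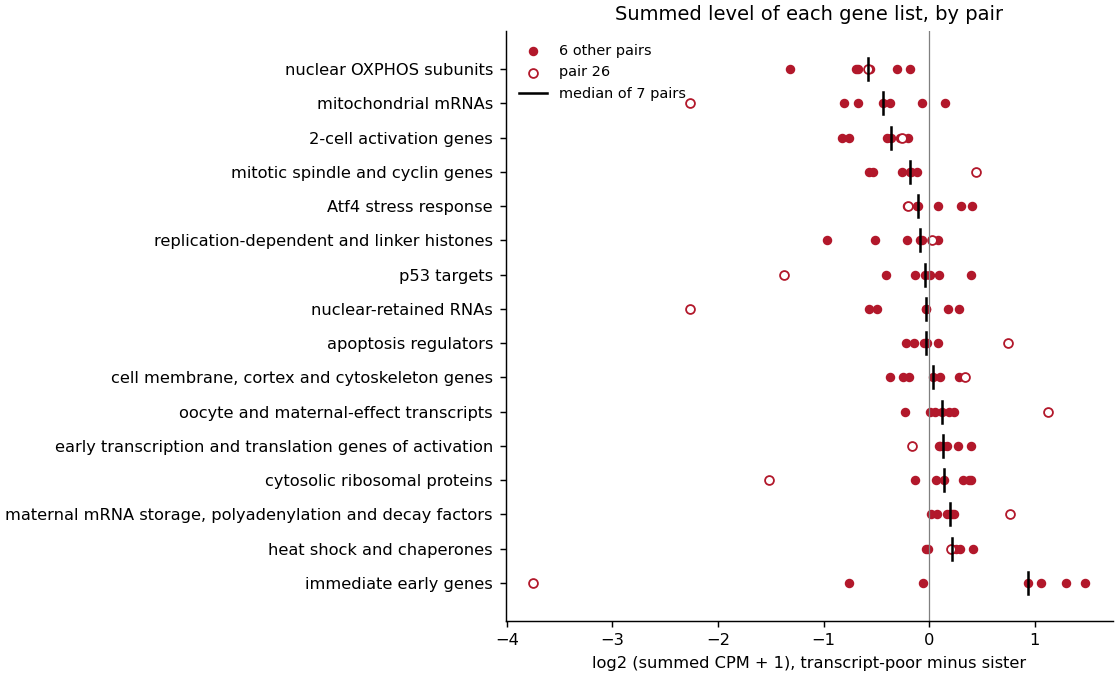
Difference in log2(summed CPM + 1) of each gene list between the transcript-poor blastomere and its sister, 1 point per pair, with pair 26 open and bars at the median of 7 pairs. Nuclear OXPHOS and 2-cell activation genes were lower in 7 of 7 pairs and maternal RNA storage factors higher in 7 of 7, while p53, Atf4 and apoptosis lists had medians between -0.10 and -0.03 with points on both sides.

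A sum follows the highest members of a list, whereas the median over abundant members weighs each gene alike. That median log2 difference was -0.58 over all abundant genes, and it was -1.61 for nuclear OXPHOS, -1.27 for 2-cell activation, -0.75 for mitochondrial, -0.29 for ribosomal protein, -0.20 for early activation, -0.08 for oocyte and maternal-effect and -0.01 for maternal RNA storage genes. For the last 4 of these, as for heat shock (-0.67), cortex (-0.11) and immediate early genes (-0.14, 1 gene), the sum and the median over members differed in sign with all pairs. Without pair 26 the median over all abundant genes was -0.30, that of nuclear OXPHOS genes -1.27 and that of 2-cell activation genes -0.64. Without that pair the median turned positive for ribosomal protein (0.06), maternal RNA storage (0.17), cortex (0.21) and immediate early genes (0.46, 1 gene). So did the median of p53 targets (-0.30 with all pairs, 0.25 without pair 26, 5 genes). That of Atf4 stress response genes also did (-0.28 and 0.20, 11 genes). The median stayed negative for mitochondrial (-0.35), early activation (-0.01), oocyte and maternal-effect (-0.05), apoptosis (-0.07) and heat shock genes (-0.30). Part of the difference in sign thus came with pair 26.

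Among lists of cell damage and stress, the summed immediate early genes had the largest median difference. Of these 18 genes, 6 averaged 10 CPM or more in ordinary blastomeres and 1 was abundant, and that gene did not pass. Of 11 abundant apoptosis regulators, 5 abundant p53 targets and 11 abundant members of the Atf4 stress response, none passed in the test with all pairs (without pair 26 Bcl2l1 rose and Slc3a2 fell). Over all abundant genes 2.29% passed, so nothing is read from the lack of calls in such short lists. The median log2 differences of the sums of these lists were -0.03, -0.04 and -0.10, with the transcript-poor blastomere lower in 5, 4 and 4 of 7 pairs. Of 22 abundant heat shock and chaperone genes Hsp90aa1 rose and Hspb1 fell with all pairs, and without pair 26 Hsp90aa1 and Hsp90ab1 rose and none fell. Hspb1 had gaps in transcript-poor blastomeres, which took part in the gene number that chose them, so nothing is read from its fall. The sum of the heat shock and chaperone genes was higher in 5 of 7 pairs (median 0.21). Immediate early genes, which a cell can induce within minutes of stress, summed to 20.02, 658, 726, 393, 259, 552 and 234 CPM in embryos 26, 27, 35, 46, 51, 58 and 74, against 282, 236, 349, 159, 269, 289 and 397 CPM in their sisters. They were higher in 4 pairs and lower in 3, with a median log2 difference of 0.93 (0.99 without pair 26), and 27a, 35a and 58b were above all 110 ordinary blastomeres. Egr1, a zinc finger factor of this kind, was at 0, 214, 113.5, 95.6, 117.5, 83.8 and 36.4 CPM against 55.98, 106.1, 21.3, 25.2, 52.5, 36.9 and 46.4 CPM.

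Of 37 abundant mitotic spindle and cyclin genes 3 fell (Anln, Ccnb1 and Mad2l1) and none rose, against 1.17% lower of all abundant genes. Anln had gaps in transcript-poor blastomeres, which took part in the gene number that chose them, so nothing is read from this number. Of the 37, 8.11% were lower in all 7 pairs, against 7.47% of all abundant genes. The sum of the list was lower in 6 of 7 pairs (median -0.18). With all pairs, none of 17 abundant genes of membrane, cortex and cytoskeleton and none of 6 abundant histone genes passed, and without pair 26 Myl12a, H1foo and H2afz fell. RNAs retained in the nucleus had 2 abundant members, neither of which passed. One of them, Malat1, which stays in the nuclear speckles, was at 0, 10.97, 375, 219, 381, 221 and 59.1 CPM against 308, 286, 209, 219, 412, 287 and 197 CPM. Its level was thus at or near that of the sister in 46, 51 and 58, higher in 35 and low or missing in 26, 27 and 74.

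Transcript-poor blastomeres lay farther from their sisters than ordinary partners from each other. The distance between partners (1 minus the Spearman correlation over 9244 genes at the lower total of the pair) was 0.559, 0.437, 0.307, 0.348, 0.313, 0.347 and 0.301, against 0.113 to 0.282 (median 0.190) in 55 ordinary pairs. The 7 values lay above all ordinary ones over these genes, as a description, since the members were chosen on counted genes. Over the abundant genes alone embryo 74, at 0.293, lay within the ordinary range of 0.0930 to 0.299. The other transcript-poor pairs lay above it. At the common depth the nearest of the other libraries was the own sister for 1 of 7 transcript-poor blastomeres (74a) and for 23 of 55 ordinary ones, and the sister of 51b ranked 79.

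The question of whether the place of sperm injection went along with transcript-poor blastomeres was asked over embryos. They were found in 2 of 23 contralateral (8.70%), 3 of 24 ipsilateral (12.5%) and 2 of 15 equatorial embryos (13.3%). The exact Fisher-Freeman-Halton test gave p = 1 (two-sided), and with limits of 9000 and 10000 genes p was 0.637 and 0.566. With 7 such embryos, a difference between sites was not detectable. The blastomeres of the series that were absent from the count matrix were mostly equatorial. The shares by site and by plate thus cover only embryos in the matrix and are not rates over all injected embryos. By plate, as the labels name it, they were in 4 of 46 embryos of plate 1 (8.70%) and in 3 of 16 of plate 2 (18.8%; Fisher's exact test, two-sided, p = 0.361, adjusted over both tests p = 0.722). In 5 of the 7 embryos the poor blastomere had the letter a.

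The sisters themselves were set against blastomere a of each of the 55 ordinary pairs. Total counts were 1411014 ± 231851 against 1341941 ± 358972 (SD, n = 7 and 55, exact rank-sum test, two-sided, p = 0.695), genes at the common depth 10028 ± 564 against 10246 ± 544 (exact p = 0.253), and mitochondrial shares 1.48% ± 0.483 against 1.48% ± 0.344 (exact p = 0.913). Adjusted over these 3 measures, p was 0.913, 0.760 and 0.913. In edgeR with site and plate as terms 0 of 9266 genes passed (0%), while 225 had an unadjusted p below 0.05. DESeq2 called 8 genes, all lower in sisters. The smallest p-values were those of Fam161a, Polr3e, 0610040J01Rik, Arv1, Pramef12 and Hadhb, all with adjusted p of 0.96 or more. Blastomere 27b was the exception among sisters, with counts in 97.1% of abundant genes where the other 6 had 99.01% to 99.96% and all 110 ordinary blastomeres 97.4% or more. Its sums of 2-cell activation (2608 CPM), early activation (3041 CPM), apoptosis (2292 CPM) and mitotic genes (8226 CPM) were also below those of all 110 ordinary blastomeres.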

How the data were processed

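Single blastomeres were lysed and their RNA turned into cDNA with a TaKaRa SMART-Seq kit, which has no molecular identifiers, and Nextera XT libraries were read on a NovaSeq. Per the labels, the authors used Trimmomatic 039, FastQC 0.12.1 and STAR 2.7.10b with mouse genome GRCm38, and deposited counts per gene (32285 genes). The counts were made without use of strand, so that strand does not tell overlapping genes apart. How reads of near-identical genes were counted was not examined. The matrix named as raw and the one named as deduplicated held the same values, so whether identical reads were collapsed was not settled. The study removed blastomeres under 9500 genes before its own comparisons. It also states a limit on mitochondrial counts, and it dropped cells left without a sister. The blastocysts of the series were not used here.

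From these counts, genes counted were compared after exact rarefaction to a common total of 199797 or to the lower total of a pair. Genes averaging at least 10 CPM in ordinary blastomeres (9244) were tested with edgeR 4.0.16 (quasi-likelihood, TMM, robust) in R 4.3.3, with the embryo as a term and the sister thinned to its partner's total, and adjusted after Benjamini-Hochberg at 0.05. DESeq2 1.42.0 was an alternative. Pairs come from the embryo number in the sample names, which joins the 2 blastomeres of 1 embryo. Single measures were tested with exact sign-flip permutation, Fisher and rank-sum tests in scipy 1.17.1. Each embryo is 1 replicate. Summed levels of lists are CPM of the total counts with 1 CPM added before log2. Lengths and GC content are those of merged exons of GENCODE M21, while the counts used M23 (32235 and 32158 genes matched). Shares and rarefied numbers cover counting error only. The fits were tested on simulated data first.

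The genes named were the up to 10 abundant genes of smallest adjusted p in each direction among those past the threshold and with the same direction in all pairs, the up to 4 highest members of each list, every mitochondrial messenger RNA, the 10 highest genes missing from 3 or more transcript-poor blastomeres and counted in every thinned sister, and the 6 smallest p-values of the sisters. Bmp15, Gdf9, Zp3 and other identity markers were added to them. The genes that passed in every fit leaving out 1 pair, the genes lower and counted in all 14 libraries, and members of lists that passed are named by those counts, chosen after their values were seen. The blastomeres and the gene lists were chosen with earlier results of these data known. Alternatives were another scaling, other filters, no thinning, no embryo term, plate 1 alone, other limits on gene number and each pair left out. Distances at 1 common total, levels without pair 26 and ordinary pairs with the blastomere of fewer genes taken first were added after the data were seen.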

Additional observations from a re-analysis of the deposited data

Results flagged for a closer look

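Measures of 7 libraries were compared with Dixon's criterion for a single value far from the rest, which chance meets in about 1 of 20 groups, and 25 of 141 groups met it. Blastomere 26a accounted for 14 of these. Its gene number was 3020, both as deposited and at the common depth. Its mitochondrial share was 0.285%, its 100 highest genes took 22.2% of counts and 46.3% of abundant genes were counted. Mitochondrial messenger RNAs summed to 2848 CPM, oocyte and maternal-effect transcripts to 44961 CPM and maternal RNA storage factors to 11957 CPM. Among named genes it stood apart with 8969 CPM of Zbed3, 5010 CPM of Khdc1b, 2773 CPM of Hsp90aa1, 831 CPM of Med31, 561 CPM of mt-Co1 and 35.04 CPM of mt-Nd5.

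Blastomere 51b, the one with most genes and counts among the 7, stood apart on the high side for genes that were low in the other 6, with 857 CPM of Ccnb1, 55.2 CPM of Rbm44, 36.8 CPM of Apoo and 89.9 CPM of Trappc1. In 35a the Atf4 stress response genes summed to 2741 CPM, and 74a was the only transcript-poor blastomere with a count of Oas1h (2.27 CPM). Among sisters, 27b had counts in 97.1% of abundant genes, 3550 CPM of Zbed3 and 412 CPM of mt-Nd3, 51a had 91.5 CPM of fibroblast and blood markers and 74b had 1287 CPM of Gm42418.

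In 5 of 88 comparisons between sites or plates, every pair of one group moved against every pair of the other, with 2 or 3 pairs in each group, and these differences were not tested. Nuclear-retained RNAs had median log2 differences from the sister of -0.033 after contralateral, 0.23 after equatorial and -0.57 after ipsilateral ICSI, and the equatorial pairs stood against both others. For heat shock and chaperone genes the medians were 0.31, -0.022 and 0.26, again with the equatorial pairs against both others. For cumulus and granulosa markers the median was 0.51 in equatorial and -1.69 in ipsilateral pairs.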

How the results depend on the processing

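The number of abundant genes that passed between transcript-poor blastomeres and sisters (52 higher and 54 lower) depended on the setting. It was 784 with DESeq2 (63 higher and 721 lower), 64 with every gene with a count tested (36 and 28), 66 with only genes of at least 50 CPM tested (47 and 19), 63 with members under 9000 genes (34 and 29), 21 in plate 1 alone (16 and 5), and 27 to 256 when 1 pair was left out. The cause of these differences was not tested, although plate 1 alone and the fits without a pair hold fewer samples. Without the pairing by embryo as a block, 52 passed (38 and 14). Counts as deposited without thinning, RLE factors and total counts alone gave 78, 123 and 48 higher with 68 lower. The mitochondrial difference ran from -0.582 to -0.387 percentage points when 1 pair was left out, and its adjusted p was 0.0469 without pair 74. The difference in GC content ran from 0.428 to 0.533 points, and was 0.474 in plate 1 alone and 0.458 with members under 9000 genes. After adjustment over 3 measures, none of these last fits passed except the one without pair 74. With 6 pairs the exact sign-flip p of GC content was 0.0313 in each fit, the smallest possible. With the 4 pairs of plate 1 the smallest possible was 0.125. For the sisters against ordinary blastomeres, DESeq2 called 8 genes and a test of every gene with a count 343 (334 higher and 9 lower), against 0 in the other fits run. The differences of sisters in total counts (-2899 to 121055 counts) and in mitochondrial share (-0.113 to 0.123 points, and -0.0807 against blastomere b) changed sign between fits and passed in none of them. Of the alternatives for single genes and measures without a test across genes, 324 kept direction and call, 57 kept direction and lost the call and 4 changed sign. Under 10 CPM depth limits what can be called lost, since thinned sisters too held counts for a median of 43.4% of the genes at 3 to 10 CPM.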
